A study of Mus musculus with 4 samples.

Results

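The hippocampal and thalamic marker genes are 10 genes that mark brain regions lying beneath the cerebral cortex, and they were read here as a check of what the cortical dissections held. They were taken by gene symbol as *Prox1*, *Dsp*, *Tdo2*, *Fibcd1* and *Wfs1* for the hippocampus and *Tcf7l2*, *Lef1*, *Prkcd*, *Calb2* and *Ramp3* for the thalamus, and are 10 of the 18194 genes measured. All 21 probe sets that name 1 of these genes are reported, out of 34958 probe sets with a single gene, and 0 probe sets name a member together with another gene. The arrays compared ipsilateral cortex of *P4htm*-/- mice (P4H-TM deficient), contralateral cortex of *P4htm*-/- mice, ipsilateral cortex of WT mice and contralateral cortex of WT mice, all from C57BL/6J animals 3 months old, 24 h after permanent occlusion of the left middle cerebral artery (pMCAO). Each condition is 1 array hybridized with RNA pooled from 4 mice. Every contralateral sample therefore comes from an operated animal, variation between mice was averaged within the pool, and there is no replicate array and no test. Values are log2 expression values per probe set. In such tissue RNA, fewer cells of a type and less RNA per cell cannot be told apart.

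The hippocampus holds the granule cells of the dentate gyrus and the pyramidal neurons of the CA fields, and the thalamus holds relay neurons that project to the cortex. None of the markers is silent everywhere else. *Wfs1* is also used by upper-layer cortical neurons, *Prox1* and *Calb2* by cortical interneurons, *Prkcd* by phagocytes, *Lef1* by brain endothelium and *Tcf7l2* by the oligodendrocyte lineage. Since P4H-TM takes part in the regulation of hypoxia-inducible factor (HIF), the promoter windows of *Fibcd1* and *Wfs1*, which were the only members to differ by at least 1.5-fold between compared arrays, are shown with every match to the HIF core motif in capitals (ACGTG or GCGTG, either strand). Each window runs from 250 bases before to 50 bases after a gene start, from RefSeq on GRCm38.p6, at chr2:31845956-31846255 on the minus strand for *Fibcd1* and chr5:36988933-36989232 on the minus strand for *Wfs1*.
Fibcd1: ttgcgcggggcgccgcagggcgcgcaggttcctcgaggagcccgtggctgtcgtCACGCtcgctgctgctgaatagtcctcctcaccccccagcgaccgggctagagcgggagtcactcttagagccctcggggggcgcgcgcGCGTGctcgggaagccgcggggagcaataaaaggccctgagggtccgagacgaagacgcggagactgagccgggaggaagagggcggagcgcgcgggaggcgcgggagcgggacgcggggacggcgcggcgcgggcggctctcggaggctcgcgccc
Wfs1: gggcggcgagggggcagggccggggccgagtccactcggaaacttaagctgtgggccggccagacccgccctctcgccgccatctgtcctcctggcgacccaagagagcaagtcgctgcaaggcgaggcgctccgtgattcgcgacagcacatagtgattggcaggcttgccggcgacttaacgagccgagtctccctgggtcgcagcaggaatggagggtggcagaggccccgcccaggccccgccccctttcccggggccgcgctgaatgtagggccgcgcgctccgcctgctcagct
The *Fibcd1* window has 2 matches, and 20.6% of all windows of this length have at least as many. The *Wfs1* window has 0. Of 15 windows found for 9 of the 10 members, 7 hold at least 1 match, and 43.8% of all 32851 windows of this length do.

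*P4htm*, the targeted gene, read 8.23 in ipsilateral and 8.27 in contralateral *P4htm*-/- cortex, against 10.02 in ipsilateral and 10.03 in contralateral WT cortex. Its other probe set was also lower on both *P4htm*-/- arrays. The position of these probe sets relative to the deletion is not known here. The array medians lay between 5.53 and 5.55, and 58.9% to 59.5% of all probe sets were above background. A log2 value over 4.80 counted as above background, since 95% of the values of 80 olfactory, vomeronasal and taste receptor probe sets lay below it. Between compared arrays these receptor probe sets scattered with SDs of 0.18 to 0.21 (log2), and probe sets that share a gene with SDs of 0.13 to 0.18. Neither SD measures variation between mice. The receptor values lay mostly below background, and probe sets that share a gene can read different transcripts, so neither is a pure measure of technical scatter at the members' levels. Where a gene had several probe sets, the one with the highest mean stood for it.

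Of the 5 hippocampal members 3 were above background on all 4 arrays, and *Dsp* and *Tdo2* were not above background on any. *Prox1*, a homeodomain transcription factor that specifies dentate granule cells, read 5.88 in ipsilateral and 5.98 in contralateral *P4htm*-/- cortex, and 5.93 in ipsilateral and 6.16 in contralateral WT cortex. Its values spanned 0.28 on the log2 scale, and the WT contralateral array was the highest. The remaining probe sets of *Prox1* were not above background on any array, with values between 2.90 and 3.90. *Dsp* encodes desmoplakin, a desmosomal protein that marks dentate granule cells in the mouse, and its 3 probe sets read between 3.15 and 3.73. *Tdo2* encodes tryptophan dioxygenase, the first enzyme of the kynurenine pathway and a marker of mature granule cells, and its 3 probe sets read between 3.03 and 3.86. No difference is given for these probe sets, because neither compared array exceeded background.

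The CA field markers *Fibcd1* and *Wfs1* were the members that differed most between arrays. *Fibcd1* encodes a membrane receptor for acetylated ligands and marks pyramidal neurons of field CA1. It read 5.99 in ipsilateral and 5.90 in contralateral *P4htm*-/- cortex, and 5.79 in ipsilateral and 6.40 in contralateral WT cortex. The WT contralateral array thus stood above the other 3, which lay within 0.20 of each other. *Fibcd1* was lower in ipsilateral than in contralateral WT cortex, with a log2 difference of -0.61 (1.53-fold), and the same difference in *P4htm*-/- cortex was 0.09. *Wfs1* encodes wolframin, a protein of the endoplasmic reticulum membrane. It read 10.33 in ipsilateral and 9.74 in contralateral *P4htm*-/- cortex, and 10.43 in ipsilateral and 9.94 in contralateral WT cortex. Both ipsilateral arrays lay above both contralateral arrays, which was the case for 1 of the 8 detected members and for 16.2% of all detected genes. The ipsilateral side was higher by 0.59 (1.51-fold) in *P4htm*-/- cortex, just past the 1.5-fold limit, and the difference in WT cortex was 0.49, which did not reach it. Each of these genes has 1 probe set, so no other probe set can be set beside it.

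All 5 thalamic members were above background on all 4 arrays, and none differed by 1.5-fold in any comparison. *Tcf7l2*, a Wnt effector that binds DNA through an HMG box and helps to specify thalamic neurons, read 6.11 in ipsilateral and 6.25 in contralateral *P4htm*-/- cortex, and 6.25 in ipsilateral and 6.45 in contralateral WT cortex. This probe set was lower on the ipsilateral side in both genotypes, with differences of -0.14 in *P4htm*-/- and -0.20 in WT cortex. A further detected probe set of *Tcf7l2*, of the type whose probes can be shared between transcripts, ran the other way. It read 5.36 in ipsilateral and 5.14 in contralateral *P4htm*-/- cortex, and 5.43 in ipsilateral and 5.12 in contralateral WT cortex, so the direction for *Tcf7l2* depends on the probe set. The other probe sets of the gene stayed below background, at 3.74 to 4.56. *Lef1*, another member of the same transcription factor family, was nearly level, at 6.35 in ipsilateral and 6.37 in contralateral *P4htm*-/- cortex and 6.48 in ipsilateral and 6.45 in contralateral WT cortex. Its other probe set was not above background on any array.

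*Prkcd*, which encodes protein kinase C delta and marks thalamic relay neurons, stood out on the WT ipsilateral array alone. It read 6.06 in both ipsilateral and contralateral *P4htm*-/- cortex, and 6.58 in ipsilateral and 6.12 in contralateral WT cortex. The ipsilateral difference between *P4htm*-/- and WT cortex was -0.52, just short of 1.5-fold. Its other probe set, also above background, read 5.39 in ipsilateral and 5.33 in contralateral *P4htm*-/- cortex and 5.31 in ipsilateral and 5.28 in contralateral WT cortex, a range of 0.11. *Calb2* encodes calretinin, a calcium-binding protein of midline thalamic neurons and of interneurons. It read 7.85 in ipsilateral and 8.13 in contralateral *P4htm*-/- cortex, and 8.22 in ipsilateral and 8.12 in contralateral WT cortex, so that the *P4htm*-/- ipsilateral array was the lowest and the other 3 lay within 0.10. *Ramp3*, an accessory protein of calcitonin-family receptors, read 7.73 in ipsilateral and 7.69 in contralateral *P4htm*-/- cortex, and 7.69 in ipsilateral and 7.85 in contralateral WT cortex. Its range of 0.16 was below the SD of the receptor probe sets.

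**Figure D1:**
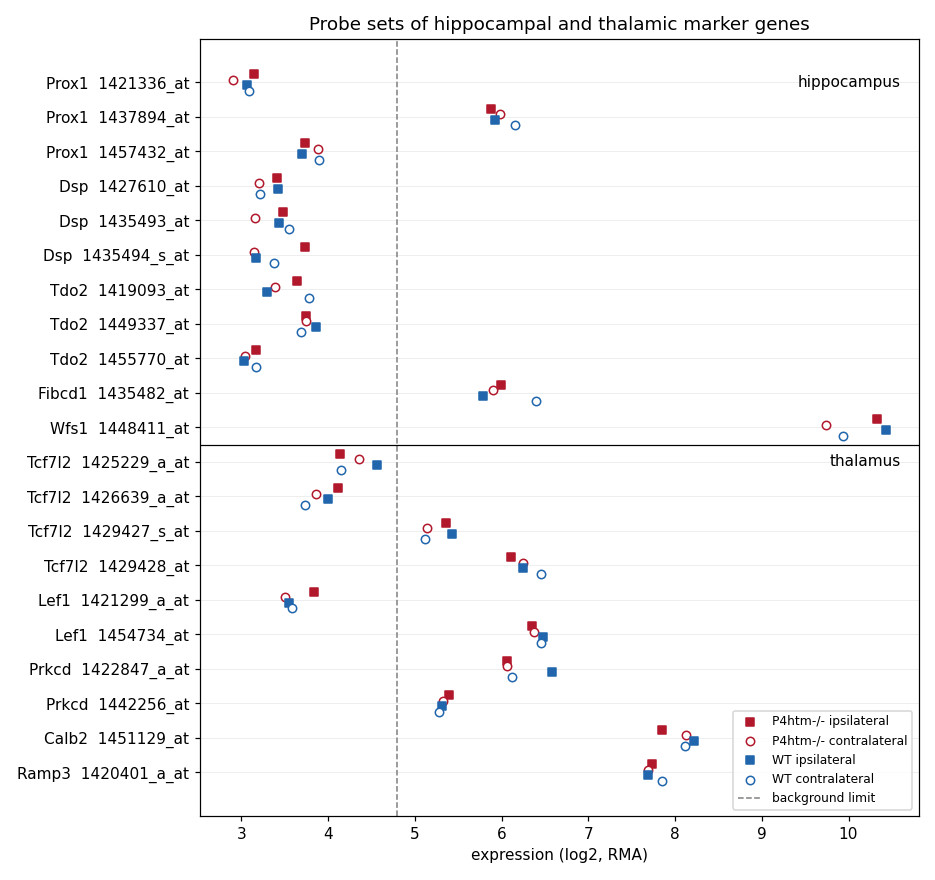
Log2 expression (horizontal axis) of all 21 probe sets of the marker genes (rows), with *P4htm*-/- in red and WT in blue, filled squares for ipsilateral and open circles for contralateral cortex, 1 pooled array each. Values left of the dashed line (4.80) are not above background, and all probe sets of *Dsp* and *Tdo2* lie there on every array.

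Of the 21 probe sets, 10 were above background on all 4 arrays and 11 on none. The range over the 4 arrays of the 8 detected members had a median of 0.355, against 0.23 over the 13414 detected genes, and was above that value for 6 of the 8. *Wfs1* had a range of 0.69, with 2.9% of detected genes ranging more widely, *Fibcd1* one of 0.61, with 4.3%, *Prkcd* one of 0.52, with 6.9%, and *Calb2* one of 0.37, with 19.3%. Of the 8 detected members, 4 were highest on the WT ipsilateral array, *Wfs1* and *Prkcd* among them, and 4 on the WT contralateral array, *Fibcd1* among them. Over all detected genes 59.6% were highest on a WT array, and the share of each WT array is not given here.

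The comparison of ipsilateral with contralateral cortex asks whether the region markers differed between the injured side and the other side of the same mice. In *P4htm*-/- cortex 1 of the 8 detected members, *Wfs1*, was higher and 0 were lower, against 1.53% of all genes higher and 0.166% lower past 1.5-fold. In WT cortex 0 were higher and 1, *Fibcd1*, was lower, against 2.41% of all genes higher and 0.444% lower. A single gene of 8 is too few to set against these shares. The median difference of the members was -0.01 in *P4htm*-/- and -0.065 in WT cortex, and that of all genes was -0.02 in both. In *P4htm*-/- cortex 3 members lay above 0, 4 below and 1 at 0, and in WT cortex 4 lay above and 4 below. With the mean of a gene's probe sets, 6 lay above and 1 below in *P4htm*-/- cortex, so this tally depends on the probe sets used. For *Prox1*, *Lef1* and *Tcf7l2* that mean takes in probe sets that were above background on no array.

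Markers of other tissues and cell types moved in the same comparisons, and counts here are of genes higher past 1.5-fold, against 1.53% of all genes in *P4htm*-/- and 2.41% in WT cortex. In *P4htm*-/- ipsilateral cortex 3 of 7 detected choroid plexus genes, 4 of 12 meningeal and fibroblast genes, 1 of 11 microglia and macrophage genes and 1 of 8 astrocyte genes passed it, and in WT ipsilateral cortex 4 of 8, 4 of 12, 2 of 11 and 1 of 8. *Ttr*, which encodes the transport protein transthyretin of the choroid plexus, read 13.62 in ipsilateral and 9.03 in contralateral *P4htm*-/- cortex, and 14.06 in ipsilateral and 8.71 in contralateral WT cortex. Both ipsilateral arrays were far above both contralateral arrays, and *Wfs1* was also higher on both ipsilateral arrays. The other choroid plexus genes past 1.5-fold were *Kl* and *Sostdc1* in both genotypes and *Aqp1* in WT cortex. The meningeal genes were *Dcn*, *Lum*, *Aldh1a2* and *Col3a1*, a fibrillar collagen with differences of 1.25 in *P4htm*-/- and 1.68 in WT cortex. *Gfap*, the intermediate filament of astrocytes, differed by 1.83 in *P4htm*-/- and 2.13 in WT cortex. *Lyz2*, a lysozyme of phagocytes, differed by 1.07 in *P4htm*-/- and 1.26 in WT cortex, and *Cd68*, a lysosomal protein of the same cells, by 0.56 in *P4htm*-/- cortex. *Cd68* passed 1.5-fold in WT cortex alone, at 7.78 in ipsilateral and 6.78 in contralateral cortex. Of the 11 microglia and macrophage genes, 6 were highest on the WT ipsilateral array, as was *Prkcd*, while 3 were highest on the *P4htm*-/- ipsilateral and 2 on the WT contralateral array. This was not particular to them. With ties included, 8 of 16 thalamic, 6 of 8 choroid plexus and 6 of 12 meningeal and fibroblast genes were also highest on the WT ipsilateral array. Of the cortical projection neuron genes 1 of 18 was. The share of all detected genes highest on that array is not given here, so these counts have no such share beside them. Markers of cortical projection neurons had a median of -0.015 in *P4htm*-/- and -0.185 in WT ipsilateral against contralateral cortex. Of these, 10 of 18 lay below 0 in *P4htm*-/- and 16 of 18 in WT cortex, against 54.7% and 53.0% of all genes. *Lamp5* alone among them passed 1.5-fold, with a difference of -0.59 in WT cortex. In WT cortex, where *Fibcd1* was the lower member, 8 of 10 striatal genes (median -0.215) and 9 of 13 interneuron genes (median -0.1) also lay below 0. The part of these other markers in the values of *Wfs1*, *Fibcd1* and *Prkcd* was not tested.

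The comparison of *P4htm*-/- with WT cortex asks whether the region markers differed between the pools of the genotypes. It uses the same 4 arrays as the comparison of sides, so these differences share their values. No member differed by 1.5-fold between the genotypes on either side. On the contralateral side 0 of 8 were higher and 0 were lower, against 0.228% of all genes higher and 0.159% lower, and on the ipsilateral side 0 and 0, against 0.09% higher and 0.578% lower. By the representing probe sets, most differences were below 0. On the contralateral side 7 of 8 lay below 0, against 53.1% of all genes, with a median of -0.17 and values from -0.50 for *Fibcd1* to 0.01 for *Calb2*. On the ipsilateral side 6 of 8 lay below 0, against 50.8% of all genes, with a median of -0.115 and values from -0.52 for *Prkcd* to 0.20 for *Fibcd1*. With the mean of a gene's probe sets 6 of 8 lay below 0 on the contralateral side, *Tcf7l2* turning to 0.04, and 4 of 8 on the ipsilateral side, *Prox1* turning to 0.02 and *Lef1* to 0.08. The means of these genes again take in probe sets that were above background on no array. The median of all genes was -0.01 on each side, and most of the members' differences were no larger than the scatter of the receptor probe sets. All 8 detected members had their highest value on a WT array, as did 59.6% of all detected genes, while both *P4htm*-/- arrays lay below both WT arrays for 2 of the 8 and for 17.5% of all genes. Markers of the oligodendrocyte lineage ran in the same direction, with 11 of 11 below 0 on the contralateral side (median -0.11) and on the ipsilateral side (median -0.19). They were not alone in this. On the contralateral side 7 of 8 astrocyte and 9 of 12 meningeal and fibroblast genes also lay below 0, while 6 of 7 hypothalamic genes lay above. On the ipsilateral side 7 of 8 choroid plexus and 8 of 11 endothelial genes lay below 0, while 17 of 18 cortical projection neuron genes lay above. The part of these markers was not tested.

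**Figure D2:**
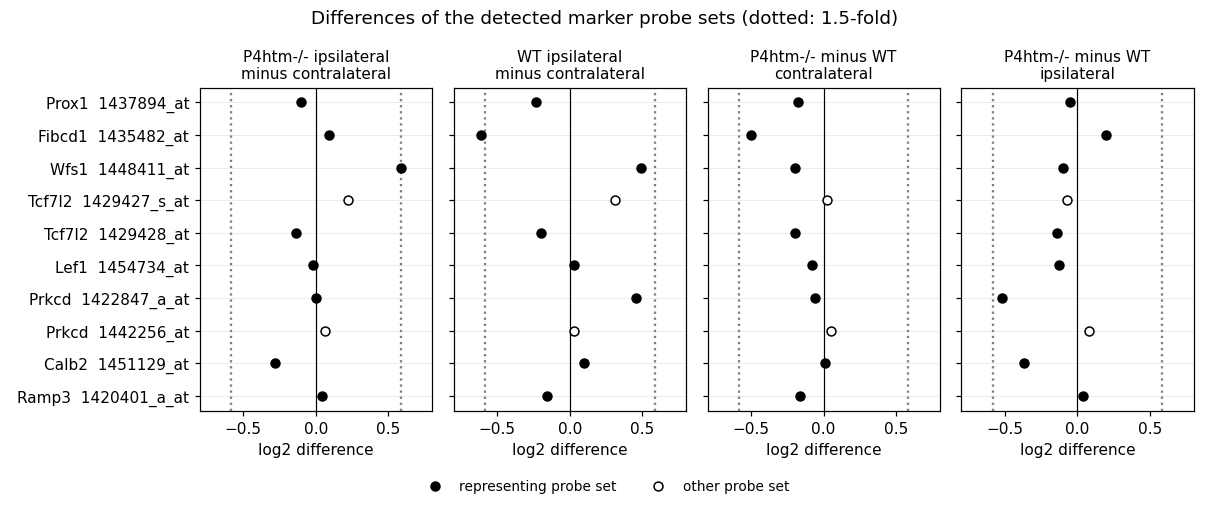
Log2 difference (horizontal axis) of each detected marker probe set (rows) in the 4 comparisons, with filled points for the probe set that represents the gene, open points for another detected probe set and dotted lines at 1.5-fold. Only *Wfs1* in *P4htm*-/- (0.59) and *Fibcd1* in WT cortex (-0.61) reach a dotted line, and both panels of *P4htm*-/- minus WT hold most filled points left of 0.

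Wider lists of region markers, which include the members, were read for detection. Of 11 measured dentate gyrus genes 7 were above background on each array, and *Dsp*, *Tdo2*, *Lct* and *Glp1r* were on none. Of 12 genes of the CA fields 11 were above background, with *Iyd* as the exception, and of 18 thalamic genes 16, with the homeobox gene *Gbx2* and *Shox2* as the exceptions. Over all genes 73.7% were above background on at least 1 array. Of the markers of cortical projection neurons, the tissue named in the labels, 18 of 18 measured genes were above background on all 4 arrays. Detection alone does not place a marker in another region, because many genes of these lists are known from cortical cells as well.

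**Figure D3:**
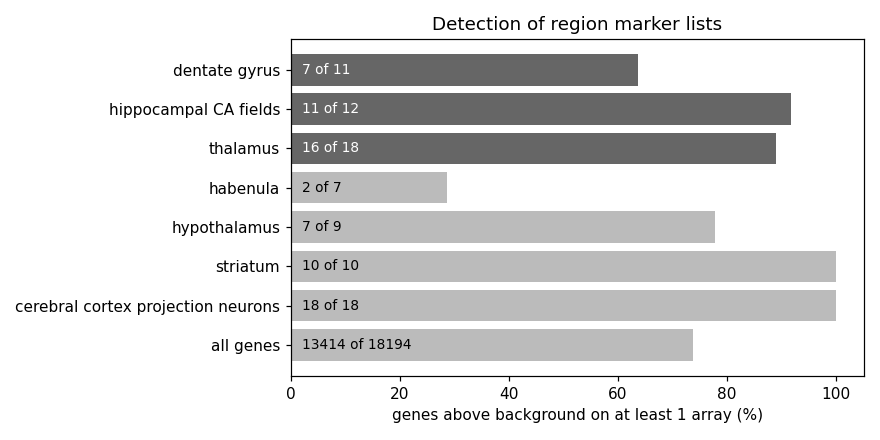
Percentage of measured genes above background on at least 1 array (horizontal axis) for each region marker list, with the counts written in the bars and the lists of hippocampus and thalamus in dark grey. The dentate gyrus list, at 63.6%, lies below all genes (73.7%), and the lists of the CA fields, at 91.7%, and of the thalamus, at 88.9%, lie above.

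Beyond the members, 3 genes of these lists differed by 1.5-fold. *Spink8*, a Kazal-type peptidase inhibitor known from CA1 neurons, read 5.49 in ipsilateral and 5.23 in contralateral *P4htm*-/- cortex, against 6.51 in ipsilateral and 6.31 in contralateral WT cortex. Both *P4htm*-/- arrays lay below both WT arrays, and the difference of *Spink8* was -1.08 (2.11-fold lower) on the contralateral and -1.02 (2.03-fold lower) on the ipsilateral side. It lies on chromosome 9, as does *P4htm*, with 34 protein-coding genes between them, whereas none of the 10 members lies on that chromosome. The difference of *Fibcd1* was -0.50 on the contralateral and 0.20 on the ipsilateral side. *Plk5*, a polo-like kinase, read 6.63 in ipsilateral and 7.09 in contralateral *P4htm*-/- cortex, and 6.58 in ipsilateral and 7.24 in contralateral WT cortex. Both ipsilateral arrays were thus the lower ones, with differences of -0.46 in *P4htm*-/- and -0.66 in WT cortex, and only the WT difference passed 1.5-fold. *Zic1*, a zinc finger transcription factor, read 9.22 in ipsilateral and 9.50 in contralateral *P4htm*-/- cortex, and 9.83 in ipsilateral and 9.36 in contralateral WT cortex. Its ipsilateral difference between *P4htm*-/- and WT was -0.61, with -0.34 from its other probe set. *Zic1* too lies on chromosome 9, with 183 protein-coding genes between it and *P4htm*.

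As groups the lists stayed close to 0. Of the 34 detected genes of the 3 lists, members included, 1 was higher and 0 were lower past 1.5-fold in *P4htm*-/- ipsilateral against contralateral cortex (all genes 1.53% and 0.166%), and 0 and 2 in WT ipsilateral against contralateral cortex (2.41% and 0.444%). The counts were 0 and 1 in *P4htm*-/- against WT contralateral cortex (0.228% and 0.159%) and 0 and 2 in *P4htm*-/- against WT ipsilateral cortex (0.09% and 0.578%). The medians lay between -0.045 and 0.01. The thalamus list had its widest shift, a median of -0.135 with 11 of 16 genes below 0, in *P4htm*-/- against WT ipsilateral cortex. Cortical projection neuron markers ran the other way there, 17 of 18 lying above 0 (median 0.175). So did 8 of 10 striatal genes (median 0.195) and 8 of 13 interneuron genes (median 0.08). Of all genes 50.8% lay below 0 and 46.9% above 0 in that comparison. Genes of the Wnt pathway, in which *Tcf7l2* and *Lef1* act, held 0 genes past 1.5-fold in any of the 4 comparisons, with medians between -0.155 and 0.07.

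**Figure D4:**
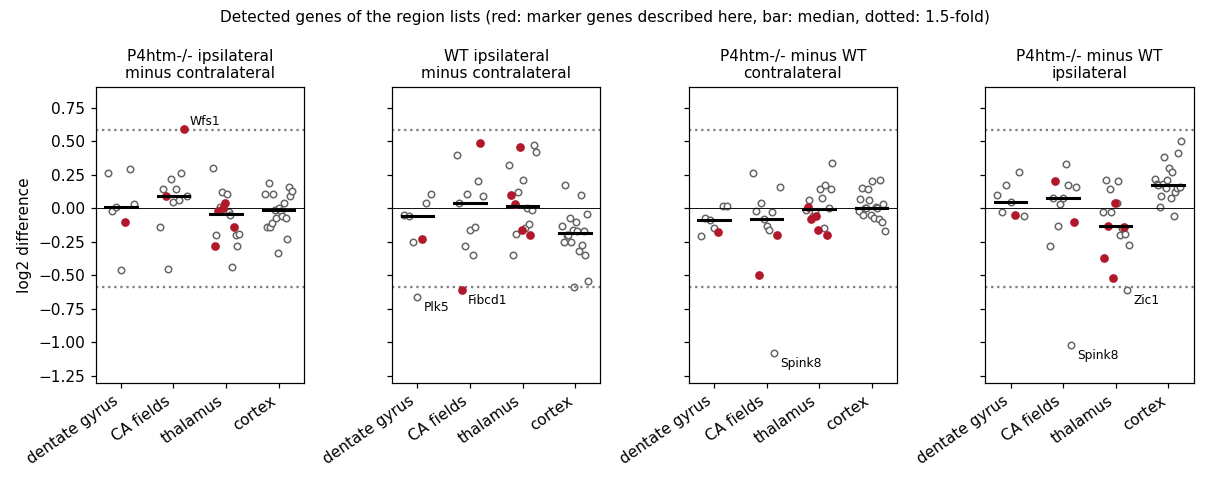
Log2 difference (vertical axis) of each detected gene of the dentate gyrus, CA field, thalamus and cortical projection neuron lists in the 4 comparisons, with the marker genes in red, the other listed genes as open circles, the list median as a bar and dotted lines at 1.5-fold. *Spink8* (-1.08 and -1.02) is the lowest point in both panels of *P4htm*-/- minus WT, and the hippocampal and thalamic list medians lie between -0.135 and 0.09.

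Genes whose mean-centred profile over the 4 arrays came nearest to those of *Wfs1* and *Fibcd1* were taken from the 13413 other detected genes by Euclidean distance on the log2 scale, as a description of 4 values. For *Wfs1* they were *Gins1* at 0.03 and *Ampd3* and *Elk3* at 0.07. For *Fibcd1* they were *Sptssb* at 0.06, *2310067E19Rik* at 0.08 and *Ica1l* at 0.09, of which *Sptssb* exceeded background only in WT contralateral cortex, at 4.98.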

How the data were processed

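RNA of whole cortex was pooled from 4 mice per condition and hybridized to 1 Affymetrix mouse genome array each. For every probe set the authors deposited a log2 value, from RMA per the submitters' processing notes, a method that corrects background and brings the arrays to a common distribution, so a difference shared by all genes would be removed. Base 2 was inferred from values of 2.51 to 14.9, the base being not given in the sources used here. Of 45101 probe sets 34958 name 1 gene, 932 several and 9211 none in the annotation table, and 34754 of these were matched to RefSeq symbols (GRCm38.p6, used for names, gene order and promoter windows). A gene counted as higher or lower past 1.5-fold when at least 1 compared array exceeded background. With 1 array per condition there was no test, and the small number of arrays limits precision. Besides the members and *P4htm*, the text names every detected gene of the dentate gyrus, CA field and thalamus lists past 1.5-fold, up to 4 genes with the largest such differences from each other list, and the 3 nearest profiles of each member past 1.5-fold. Genes named as not above background, as detected habenula genes or under an alternative setting alone were chosen after their values were seen. The members and the 15 lists were chosen with earlier results of these data known. Alternatives were other probe set choices, detection filters, a 99th percentile background, median centring, cyclic loess and a 2-fold limit. Python 3.11.15, numpy 2.4.6, pandas 2.3.3, matplotlib 3.10.9, R 4.3.3 and limma 3.58.1 were used.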

Additional observations from a re-analysis of the deposited data

Results flagged for a closer look

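*Pmch*, the precursor of melanin-concentrating hormone and a gene of the hypothalamus list, differed between *P4htm*-/- and WT cortex in opposite directions on the 2 sides. It read 7.40 in *P4htm*-/- and 6.78 in WT ipsilateral cortex, a difference of 0.62, and 5.64 in *P4htm*-/- and 6.39 in WT contralateral cortex, a difference of -0.75. With 1 array per condition the difference between sides was not tested.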

How the results depend on the processing

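No paired analysis was possible because the labels carry no replicate numbers and each condition has 1 array, and the differences between sides already compare RNA pools within a genotype. A fit with side and genotype as additive terms, which would take their interaction as error, was not run. A 2-fold limit left 0 members in each comparison. With the 99th percentile as background (6.60) *Fibcd1* was no longer detected, so that WT ipsilateral against contralateral cortex held 0 members past 1.5-fold. Detection depended strongly on this limit. *Prox1* (at most 6.16), *Tcf7l2* (6.45), *Lef1* (6.48) and *Prkcd* (6.58) were then also above background on no array. Of the hippocampal members *Wfs1* alone and of the thalamic members *Calb2* and *Ramp3* alone stayed detected. All other alternatives gave the reported counts of members past 1.5-fold. For the 3 region lists, a 2-fold limit left 0 genes in *P4htm*-/- and 0 in WT ipsilateral against contralateral cortex and 1 (*Spink8*) in *P4htm*-/- against WT ipsilateral cortex. The stricter background left 1 (*Plk5*) in WT ipsilateral against contralateral cortex, 0 in *P4htm*-/- against WT contralateral cortex and 1 (*Zic1*) in *P4htm*-/- against WT ipsilateral cortex, where the mean of probe sets also left 1 (*Spink8*). Other alternatives raised the counts. Without a detection filter *Shox2* was added, giving 3 genes in WT ipsilateral against contralateral cortex and 3 in *P4htm*-/- against WT ipsilateral cortex. The most variable probe set added *Plekhg1* in *P4htm*-/- against WT ipsilateral cortex, also giving 3. Of 44 gene differences, those moving by more than the receptor SD numbered 5 with the mean of probe sets and 5 with the most variable probe set, and all belonged to *Tcf7l2*, *Prkcd* and *Lef1*. The ipsilateral difference of *Tcf7l2* in WT cortex, -0.20 as reported, was 0.20 with the mean and 0.41 with the most variable probe set. That probe set, at 4.56 in ipsilateral and 4.15 in contralateral WT cortex, was above background on no array, so its difference is not one between detected values. The mean of *Tcf7l2* also takes in probe sets that were above background on no array. The difference of *Prkcd* between *P4htm*-/- and WT ipsilateral cortex, -0.52 as reported, was -0.22 with the mean. Median centring and cyclic loess moved none of the 44.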

Other observations

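Lists of neighbouring regions gave a mixed picture. Of 7 habenula genes 2 were above background (*Tac2* and *Nwd2*), while *Gpr151*, *Pou4f1* and *Chrnb4* were on no array. All 10 measured striatal genes were above background on every array, with a median difference of 0.05 in *P4htm*-/- and -0.215 in WT ipsilateral against contralateral cortex, and 0 genes past 1.5-fold. Of 9 hypothalamic genes 7 were above background, and 4 of these 7, *Avp*, *Oxt*, *Gal* and *Pmch*, differed by 1.5-fold between *P4htm*-/- and WT contralateral cortex, 3 higher and 1 (*Pmch*) lower, against 0.228% of all genes higher and 0.159% lower. *Avp*, which encodes vasopressin, read 8.03 in ipsilateral and 9.34 in contralateral *P4htm*-/- cortex, and 7.59 in ipsilateral and 7.92 in contralateral WT cortex.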
